A study of Mus musculus with 4 samples.

Results

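Of 117282 accessible chromatin peaks mapped in mouse bone mesenchymal stem cells (MSCs), 216 lay on or beside olfactory receptor genes. They are the autosomal peaks that overlapped, or ended within 20 kb of, a protein-coding gene whose symbol starts with Olfr in the GENCODE vM21 annotation, and that were more than 2 kb from the transcript start of any other protein-coding gene. The rule uses positions and no measured value. Within 20 kb of these genes lay 264 autosomal peaks, of which 48 were left out because they were within 2 kb of the start of another gene. The peaks were called by ATAC-seq, in which a transposase cuts and tags open DNA so that the number of fragments at a site measures its accessibility. Bone MSCs of old mice (18 to 22 months) were compared with MSCs of young mice (3 to 5 months), each age group being represented by 2 samples, and all 4 were cultured at 2% O2. The study's methods describe MSCs sorted as CD45-, Ter119-, Sca-1+ and CD140a+ from young C57BL/6N males and do not describe the old animals separately, and the labels do not say whether the samples of a group came from separate animals. P-values therefore measure only the spread between these samples.

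Olfactory receptors are G protein-coupled receptors through which sensory neurons of the nose detect odorants. Each of these neurons transcribes a single receptor allele, while the other Olfr genes, which lie in tandem clusters on many chromosomes, are packed in heterochromatin. Outside the nose the family is mostly silent, although roles have been described for a few receptors in kidney, sperm, muscle and other tissues. How much of this chromatin was open in MSCs, where the open sites were, and whether they differed with age are the questions the peaks can address.

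The central 300 bases of 6 members are shown because the results below turn on these sites, with the forward strand of GRCm38 (the assembly that mm10 names) written 5′ to 3′. The first 3 are the members with the highest signal per kb, the fourth is the member with the highest signal per kb at an Olfr transcript start, and the last pair had the lowest adjusted p in each direction of the age comparison and was chosen after the values were seen. Capitals mark matches, on either strand, to the letters of an AP-1 site (TGAGTCA), a TEAD site (GGAATG), a RUNX site (TGTGGT), an E-box (CAGCTG) or a TATA box (TATAAA).
Olfr1390 intron, chr11:49337351-49337650: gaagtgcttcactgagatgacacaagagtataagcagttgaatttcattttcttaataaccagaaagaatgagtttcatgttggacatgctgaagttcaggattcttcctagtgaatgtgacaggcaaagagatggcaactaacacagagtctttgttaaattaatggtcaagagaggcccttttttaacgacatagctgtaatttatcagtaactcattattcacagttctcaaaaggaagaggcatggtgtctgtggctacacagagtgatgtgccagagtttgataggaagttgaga
Beside Olfr1423, chr19:12009001-12009300: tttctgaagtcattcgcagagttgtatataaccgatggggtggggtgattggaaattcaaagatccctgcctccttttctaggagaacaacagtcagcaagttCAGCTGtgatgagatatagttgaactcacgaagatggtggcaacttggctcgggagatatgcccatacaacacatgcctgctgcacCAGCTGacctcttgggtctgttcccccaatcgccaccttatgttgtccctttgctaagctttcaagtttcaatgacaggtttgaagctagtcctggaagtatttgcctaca
Beside Olfr288, chr15:98181101-98181400: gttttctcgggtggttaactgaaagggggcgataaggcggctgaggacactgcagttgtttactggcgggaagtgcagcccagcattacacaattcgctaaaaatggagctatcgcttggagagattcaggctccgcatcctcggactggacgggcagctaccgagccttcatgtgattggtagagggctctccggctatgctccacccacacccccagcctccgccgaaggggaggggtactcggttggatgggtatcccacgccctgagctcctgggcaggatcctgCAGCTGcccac
Olfr550 start, chr7:102578201-102578500: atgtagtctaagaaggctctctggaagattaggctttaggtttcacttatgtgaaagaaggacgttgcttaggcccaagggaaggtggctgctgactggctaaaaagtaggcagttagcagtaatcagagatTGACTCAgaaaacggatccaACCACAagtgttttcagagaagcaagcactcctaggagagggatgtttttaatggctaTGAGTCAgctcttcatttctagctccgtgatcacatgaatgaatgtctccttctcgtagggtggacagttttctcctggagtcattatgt
In Usp17la, beside Olfr665, chr7:104861401-104861700: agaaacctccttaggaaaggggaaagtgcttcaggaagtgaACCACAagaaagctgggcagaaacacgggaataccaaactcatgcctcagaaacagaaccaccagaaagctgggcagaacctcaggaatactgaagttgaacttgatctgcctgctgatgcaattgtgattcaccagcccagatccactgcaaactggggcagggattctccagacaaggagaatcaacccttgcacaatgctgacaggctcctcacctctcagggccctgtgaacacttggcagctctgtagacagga
Beside Olfr1441, chr19:12439701-12440000: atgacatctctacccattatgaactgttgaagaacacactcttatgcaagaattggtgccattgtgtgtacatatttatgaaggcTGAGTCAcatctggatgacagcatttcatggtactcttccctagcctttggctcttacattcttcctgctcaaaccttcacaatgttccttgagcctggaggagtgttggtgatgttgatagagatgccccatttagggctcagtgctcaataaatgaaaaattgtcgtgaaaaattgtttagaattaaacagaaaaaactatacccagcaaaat
The 6 windows differed in composition. The window beside Olfr288 had 59.3% GC and 15 CpG dinucleotides, whereas the window in the Olfr1390 intron had 38.7% GC, 1 CpG and 0 of the marked motifs. The Olfr550 window, which ends in the first bases of the receptor's coding exon, held 2 matches to AP-1, the Fos and Jun dimer that is active in many stromal cells, and 1 match to RUNX, the family of the bone regulator Runx2. The window beside Olfr1423 held 2 E-boxes and the window beside Olfr1441 held 1 AP-1 match. A match describes letters in the window and not a bound site.

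Chromatin around the Olfr genes was sparsely open. The genes and their 20 kb flanks, less the 2 kb around other starts, covered 27.5 Mb of the autosomes and held 7.86 peaks per Mb (95% Poisson interval 6.85 to 8.98, counting error only). The rest of the autosomes, reduced in the same way, held 42.0 peaks per Mb (92715 peaks in 2206 Mb), which is 5.35 times as many. Repeated sequence was more frequent around the receptors: 73.9% of the 32-base words there occurred once in the genome, against 84.6% over all autosomes. Per Mb of such once-occurring sequence, the densities were 10.6 and 49.7 peaks, a ratio of 4.68. How many reads the mapping quality filter removed at repeated sequence was not tested.

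**Figure D1:**
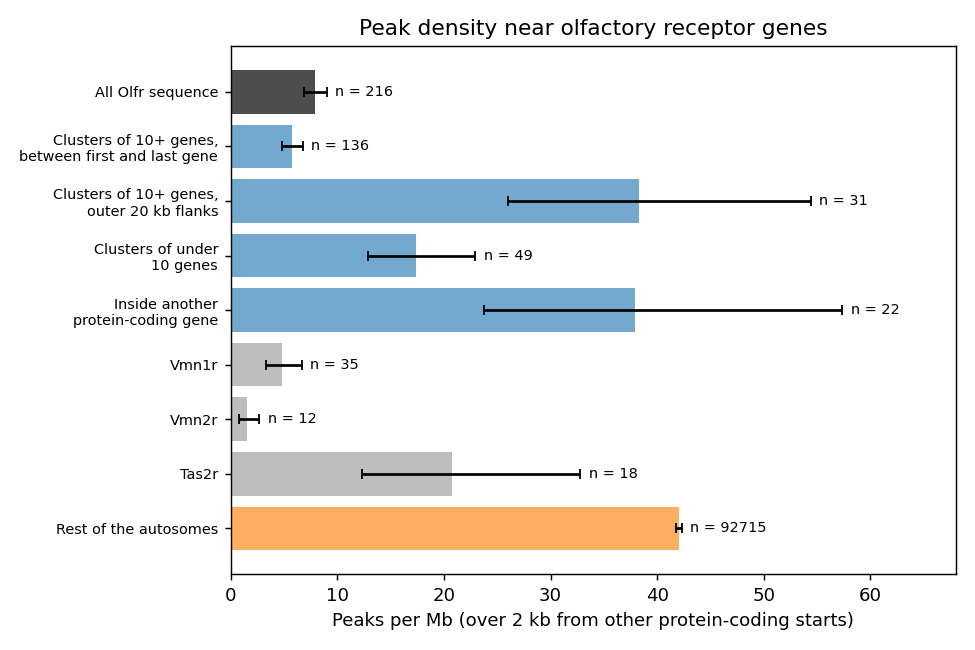
Bars give peaks per Mb of sequence more than 2 kb from other protein-coding starts, for Olfr sequence (dark), 4 overlapping subdivisions of it (blue), other chemosensory receptor families (light grey) and the rest of the autosomes (orange), and whiskers are 95% Poisson intervals. The interiors of large clusters held 5.70 peaks per Mb, whereas their outer flanks, at 38.3, came close to the 42.0 of the remaining autosomes.

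Within this sequence, the density was lowest in the interiors of the large clusters. Olfr genes were joined into a cluster where neighbours were at most 1 Mb apart, which gave 48 autosomal clusters, 22 of them with 10 or more genes (1041 genes in all). Between the first and last gene of these 22 clusters, 136 members lay in 23.9 Mb, or 5.70 per Mb (interval 4.78 to 6.74). In the 20 kb on the outer side of the first and last gene, 31 members lay in 0.809 Mb, or 38.3 per Mb (26 to 54.4), an interval that includes the density of the remaining autosomes. Clusters of fewer than 10 genes were intermediate, with 49 members and 17.4 per Mb (12.8 to 23.0). Stretches inside the body of another protein-coding gene were open at 37.9 per Mb (23.7 to 57.4; 22 members), while the sequence outside such genes held 7.21 per Mb. The outer flanks of the large clusters and the stretches inside other protein-coding genes were thus as rich in peaks as other sequence, within counting error. Flanks of the smaller clusters were not counted apart from their interiors. The share of once-occurring sequence was not measured separately for interiors, flanks or smaller clusters, so its part in these differences was not tested.

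Across single clusters, the number of peaks did not rise in proportion to the number of receptors. In total, the 22 clusters of 10 or more genes held 167 members and the smaller clusters 49. The largest cluster, Olfr987 to Olfr1274-ps on chromosome 2, holds 227 genes and had 6 members, or 1.24 per Mb. Olfr693 to Olfr519 on chromosome 7 holds 68 genes and had 1 member, and Olfr310 to Olfr292 on the same chromosome holds 15 genes and had 0. In contrast, the cluster of 129 genes from Olfr543 to Olfr692 on chromosome 7, whose array encloses the beta-globin locus, had 31 members and 13.8 per Mb. The 4 highest densities were in arrays of fewer than 10 genes: Olfr1373 to Olfr1371 on chromosome 11 had 7 members beside 2 genes (89.9 per Mb), Olfr70 to Olfr155 on chromosome 4 had 9 members beside 6 genes (56.6 per Mb), Olfr1416 to Olfr12 on chromosome 1 had 7 members beside 8 genes (44.9 per Mb), and Olfr288 to Olfr279 on chromosome 15 had 11 members beside 9 genes (37.6 per Mb). Also on chromosome 11, Olfr56 to Olfr1380 had 16 members beside 19 genes (33.4 per Mb). Of the 48 clusters, 14 had 0 members. By chromosome, the 294 Olfr genes of chromosome 2 had 9 members (1.36 per Mb), and the 82 of chromosome 11 had 37 (18.0 per Mb).

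**Figure D2:**
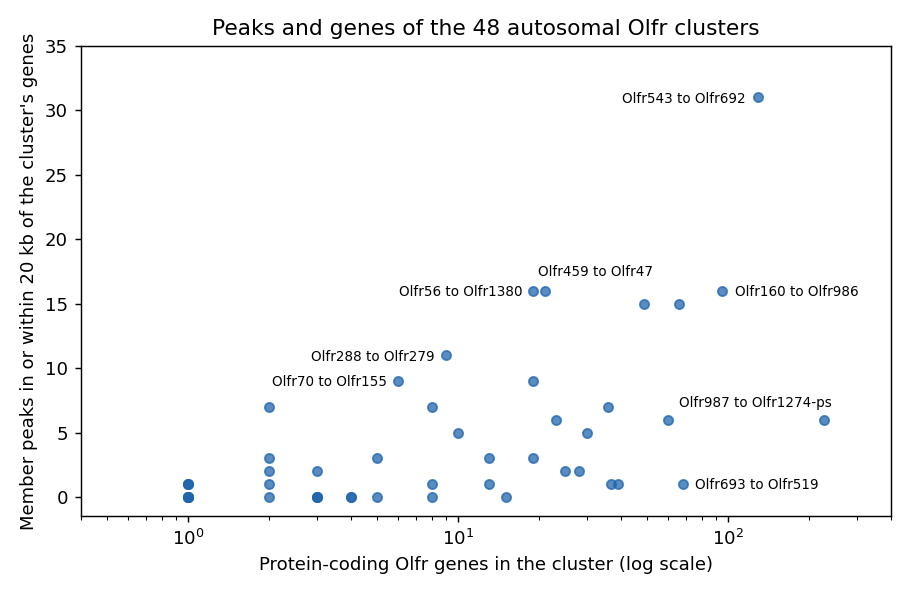
Each point is an autosomal Olfr cluster, with its number of protein-coding Olfr genes on a log axis and its number of member peaks on the vertical axis. The cluster with 227 genes had 6 members, fewer than the 16 of the 19-gene cluster Olfr56 to Olfr1380.

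Receptor promoters were rarely open. A peak within 1 kb of a transcript start was present at 41 of 1128 autosomal Olfr genes (3.63%, 95% Wilson interval 2.69 to 4.89), counting all peaks. Among 19297 other autosomal protein-coding genes outside the chemosensory families, the share was 78.2% (77.6 to 78.8). The vomeronasal receptors, which detect pheromones, resembled the Olfr family: 9 of 208 Vmn1r genes (4.33%) and 0 of 121 Vmn2r genes (which allows a share of up to 2.48%) had such a peak. Members alone lay within 1 kb of the start of 40 Olfr genes, overlapped the body of 50 (4.43%) and came within 20 kb of 182 (16.1%).

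Members were not concentrated at receptor starts either. By their midpoints, 34 members lay within 1 kb of an Olfr start, or 8.37 per Mb of such sequence (95% Poisson interval 5.79 to 11.7). Between 1 and 2 kb the density was 5.54 per Mb (3.28 to 8.75), between 2 and 5 kb 7.38 per Mb (5.46 to 9.76), and between 5 and 10 kb 5.79 per Mb (4.12 to 7.91). From 10 to 20 kb it was 9.63 per Mb (7.35 to 12.4). These 5 intervals overlap, so within 20 kb a difference in density between the start of a receptor and its surroundings was not detectable at this number of peaks. Over 20 kb from a start, in sequence that is still within 20 kb of a gene, 16 members lay at 28.1 per Mb (16.1 to 45.7), above the interval at the starts. Of the 216 members, 61 overlapped an Olfr gene, 16 of them on coding sequence, 29 on other exon sequence and 16 in introns only. Of all members, 43 (19.9%) came within 1 kb of an Olfr start, 22 of which covered one, 22 were inside another protein-coding gene and 5 overlapped an Olfr pseudogene. The median member was 5652.5 bp from an Olfr start and 22039 bp from the start of another protein-coding gene.

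Other chemosensory families, chosen with the same rule, also lay in sparsely open sequence where they form large arrays. The share of once-occurring sequence was not measured for these families. Vmn1r genes had 35 peaks (4.79 per Mb), Vmn2r genes 12 (1.53 per Mb) and the trace amine receptors (Taar) 3 (13.1 per Mb). The bitter receptors (Tas2r) had 18 peaks (20.7 per Mb), and the sweet and umami receptors (Tas1r) had 12 peaks in 0.114 Mb (106 per Mb), with a peak at the start of 3 of 3 genes.

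Where peaks were called, their median signal per kb was close to that of other distal peaks. Both sets hold only called peaks, so sites too weak to be called are absent from each. The deposited values were taken as counts scaled to the library total. They were not divided by peak length, so they were divided here by peak width to compare peaks. The median member had a mean value of 13.5 per kb over the 4 samples, against 12.7 per kb for the 92715 other distal autosomal peaks (more than 2 kb from protein-coding starts) and 23.9 per kb for promoter peaks. The members' median was 11.7 and 12.3 per kb in the old samples (replicates 1 and 2) and 14.2 and 15.9 per kb in the young samples. The median for the other distal peaks in these samples was 10.5, 12.9, 13.7 and 15.1 per kb. The members were therefore above the distal peaks in 3 of 4 samples and below them in old replicate 2. Their median width was 900 bp (100 to 10900 bp), against 1000 bp for the other distal peaks. In all 4 samples, 213 of the 216 members had more than 3 counts. The smallest value above 0 in each sample was taken as 1 count, and a value at 3 counts was then between 0.921 and 1.06 in the 4 samples. If values were scaled to 10000000 per library, which was assumed and is not stated, library totals would be between 28259470 and 32559794 counts. Because the authors' overlapping bins may count a read more than once, these are counts and not reads.

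**Figure D3:**
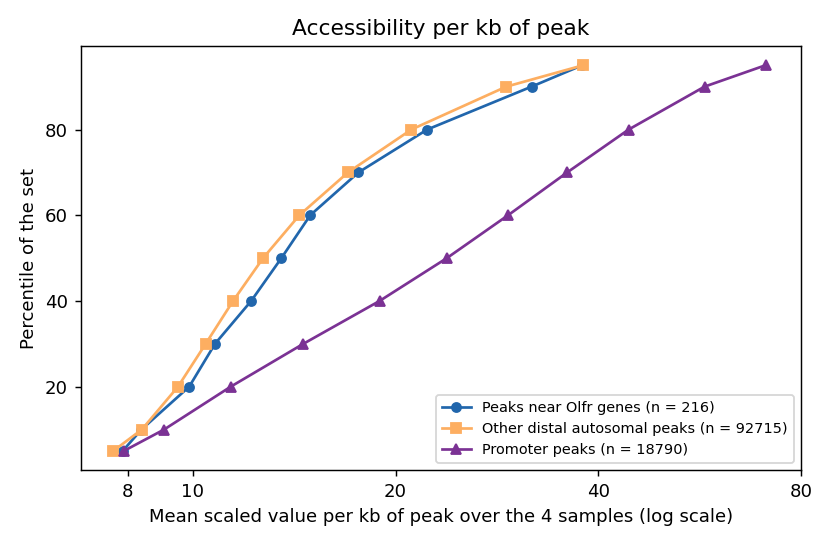
Lines join the percentiles, from 5 to 95, of the mean scaled value per kb of peak over the 4 samples (log axis), for the members, the other distal autosomal peaks and the promoter peaks outside Olfr sequence. Members followed the distal peaks along the range, with medians of 13.5 and 12.7 per kb, and promoter peaks were higher.

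In base composition and motif content the members were close to other distal peaks, with some differences in their share of motifs. The central 300 bases had a median GC content of 44.2%, against 45.7% in the other distal peaks, and 13.7% of their bases were repeat-masked, against 9.0%. An AP-1 match was present in 22.7% of members and 17.9% of the other distal peaks, and an E-box in 22.7% and 17.5%. In contrast, a TEAD match was present in 17.1% against 22.3%, and a RUNX match in 21.3% against 27.8%. The shares for a CTCF core (CCACNAGGG, CCACNAGGT, CCAGNAGGG or CCAGNAGGT) were 8.80% and 6.95%. Motifs of factors that act at receptor genes in olfactory neurons were not more frequent in members: the homeodomain letters TAATTA, of the type that Lhx2 binds, were in 6.02% against 7.41%, and the Ebf letters CCCNNGGG in 7.87% against 8.12%. Of the 43 members within 1 kb of an Olfr start, 11 (25.6%) held an AP-1 match and 2 (4.65%) the homeodomain letters. These shares are descriptions, and no test was made of them.

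The most accessible members were not at receptor promoters. The highest signal per kb (84.8) was in an intron of Olfr1390 (chr11:49336701-49338300), where the deposited values were 106 and 112 in the old samples and 157 and 168 in the young samples (here and below, replicate 1 before replicate 2). The peak with the largest total signal was 9700 bp wide and lay 17787 bp from Olfr1423 (chr19:12004301-12014000), with 566 and 520 in old samples and 699 and 812 in young samples. Both peaks were lower in the 2 old samples than in the 2 young samples as deposited, but after the scaling described below their log2 fold changes were -0.28 ± 0.16 (SE; adjusted p = 0.406) and -0.18 ± 0.13 (adjusted p = 0.507), with the old and young values of the second overlapping.

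Next in signal per kb was a CpG-rich site 3913 bp from Olfr288 (chr15:98180401-98182100; 97.6, 90.3, 120 and 132 in old replicates 1 and 2 and young replicates 1 and 2). A peak on untranslated exon sequence of Olfr432 (chr1:174052201-174054000) had values of 110, 68.2, 117 and 150 in the same order. Here old replicate 1 was close to young replicate 1, and old replicate 2 was lowest. Of the remaining 4 of the 8 most accessible, one lay on untranslated exon sequence of Olfr750 (chr14:51062401-51067000; 240, 241, 276 and 314). Another was 12228 bp from Olfr545 (chr7:102511801-102514400; 83.6, 118, 165 and 159) in sequence of 71.0% GC. A further one was 2768 bp from Olfr1359 and 4143 bp from the histone gene Hist1h2bl (chr13:21709601-21712000; 91.3, 73.7, 115 and 146). The last stood between the embryonic globin gene Hbb-y, 7285 bp away, and Olfr66, 17843 bp away (chr7:103860501-103861600; 53.1, 55.0, 53.4 and 66.6). None of the 8 was within 1 kb of an Olfr start, and log2 fold changes among them ran from -0.42 to 0.14, with adjusted p of 0.210 or more (limma).

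At receptor starts the signal was lower. The highest was at Olfr550 (chr7:102577801-102578900), 37.4 per kb, with 30.4 and 28.9 in the old and 51.0 and 54.4 in the young samples. The young values were higher in every pair, with a log2 fold change of -0.53 ± 0.22 and an adjusted p of 0.242. Next came Olfr96 (31.8 per kb), Olfr433 (30.3 per kb), Olfr12 (30 per kb), Olfr1389 (26.8 per kb) and Olfr432 (25.2 per kb). Of these 6, only the Olfr550 peak had an unadjusted p under 0.05, and none passed the threshold. The 3 widest members were a peak of 10900 bp over Olfr543 (chr7:102470601-102481500), the one beside Olfr1423, and a peak of 9000 bp in Mgat1, a gene of N-glycan synthesis, 9604 bp from Olfr1393 (chr11:49259701-49268700). The Olfr543 peak had 155 and 140 in old samples and 227 and 260 in young samples, with a log2 fold change of -0.43 ± 0.16 (adjusted p = 0.188).

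Old and young MSCs were then compared at each peak. Values were divided by RLE factors, which set the median ratio of each sample to the mean of all samples to the same level and were 0.813 (old replicate 1), 1.01 (old replicate 2), 1.07 (young replicate 1) and 1.15 (young replicate 2). limma was fitted to log2(value + 1) over all 117282 peaks, and fold changes are on that scale, where a change at a weak peak is understated. At an adjusted p under 0.01, 0 of the 216 members passed, where 0.0563% of all peaks passed; the lowest adjusted p among members was 0.0135, and 46 members (21.3%) had an unadjusted p under 0.05, where 16.4% of all peaks did. limma-voom on counts recovered from the values called 1 member, higher in old MSCs (0.463% of members and 0.123% of all peaks). Of the 46, 31 members (14.4%) were lower in old, beside 8.87% of all peaks, and 15 (6.94%) were higher in old, beside 7.49% of all peaks. Members with both old samples below both young samples numbered 51 (23.6%; 24.2% of all peaks), and those with both above numbered 44 (20.4%; 23.2% of all peaks). At a looser adjusted p under 0.05, 7 members were lower in old, or 3.24% where 0.771% of all peaks were lower, and 1 was higher, or 0.463% where 0.351% of all peaks were higher. All peaks include promoter peaks, whose log2 fold changes had an SD of 0.33, against 0.50 in the other distal peaks and 0.56 in members. Shares over the distal peaks alone were not computed. The count of 0 rested on the 2 old samples: without old replicate 1, 22 members were lower and 4 higher at an adjusted p under 0.01 (12% of members and 8.83% of all peaks), without old replicate 2, 7 were lower and 2 higher (4.17% and 1.43%), and without either young replicate the count stayed at 0. In these fits the lone old sample is assumed to vary as the young samples do.

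As deposited, without RLE factors, 10 members were lower in old at an adjusted p under 0.01 (4.63%, where 1.14% of all peaks were lower) and 0 were higher. The median log2 fold change of the members was then -0.30, beside -0.27 over all peaks, and 157 members (72.7%) were lower in old, against 74.6% of all peaks. After RLE scaling the members' median was -0.04, beside 0.00 over all peaks, with 116 lower and 100 higher. The pairs of samples went in different directions. Relative to other autosomal peaks, the members' median in old replicate 1 was 0.09 higher than in young replicate 1 and 0.05 higher than in young replicate 2 on the log2 scale. In old replicate 2 it fell by 0.18 and 0.20 against the same samples. The sign of the members' shift thus depended on which old sample was compared.

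**Figure D4:**
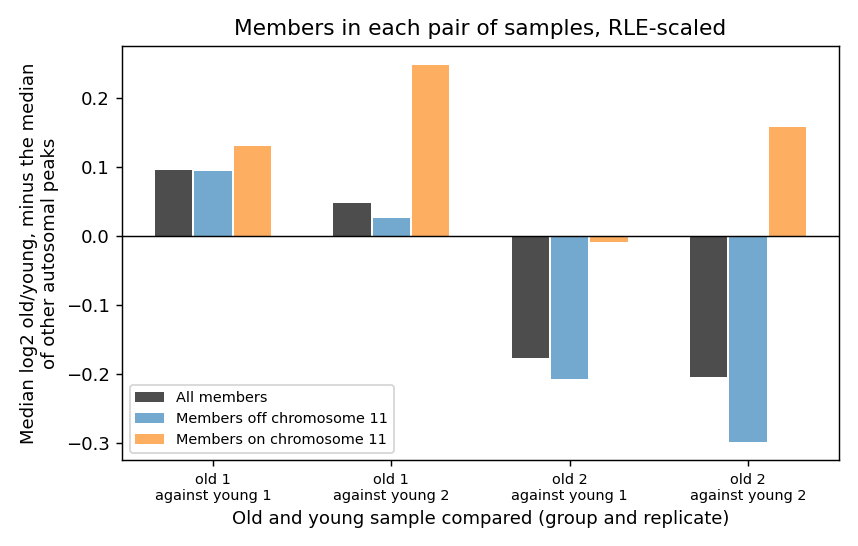
Bars give the median log2 ratio of an old to a young sample over the members, minus the median over other autosomal peaks, after RLE scaling, for all 216 members, those off chromosome 11 and those on it. The bars for all members were above 0 with old replicate 1 and below 0 with old replicate 2.

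Chromosome 11, which carries 37 members, departed from this pattern. Other peaks of chromosome 11 were 0.15 and 0.19 higher in old replicate 2 than in young replicates 1 and 2, relative to all other autosomal peaks, and 0.00 and 0.04 higher in old replicate 1. The members on chromosome 11 differed by -0.01 and 0.16 in old replicate 2, while those elsewhere differed by -0.21 and -0.30. What part the shift of the chromosome had in the members' values was not tested. Of the 179 members off chromosome 11, 28 were lower and 11 higher at an unadjusted p under 0.05, beside the 8.87% and 7.49% of all peaks.

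Of the 7 members lower at an adjusted p under 0.05, 3 with low values in old MSCs are given first. At a peak on untranslated exon sequence at the start of Olfr969 (chr9:39790501-39791400), the deposited values were 2.80 and 0.921 in old samples and 13.4 and 13.3 in young samples. The value in old replicate 2 corresponded to 3 counts. The log2 fold change was -2.17 ± 0.42 (adjusted p = 0.0219). A peak 15932 bp from Olfr1441 and 11596 bp from Pfpl, shown above, had 3.15 and 2.15 in old samples and 12.7 and 21.4 in young samples (-2.03 ± 0.37, adjusted p = 0.0168). Beside Olfr456 (chr6:42500301-42501900), the values were 5.94 and 3.38 in old samples and 17 and 19.7 in young samples (-1.54 ± 0.35, adjusted p = 0.0391). These 3 were picked among members changed the same way in all 4 pairs, so their groups could not overlap after scaling. As deposited, each young value was over 2 times each old value.

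Stronger peaks showed the same order at chromosome 9 and chromosome 1. A peak 2295 bp from Olfr984 (chr9:40116501-40117700), named after its values were seen, had 29.4 and 24.9 in old samples and 77.1 and 73.8 in young samples (-1.16 ± 0.22, adjusted p = 0.0219). A peak 1044 bp from Olfr16, the receptor known as MOR23 in sperm and muscle (chr1:172959401-172961200), had 24.8 and 16.3 in old samples and 52.0 and 71.1 in young samples (-1.27 ± 0.27, adjusted p = 0.0312). Also at an adjusted p under 0.05, and chosen for it after values were seen, were a peak 4729 bp from Olfr368 (46.9, 42.1, 94.8 and 106) and a peak on untranslated exon sequence of Olfr282 (6.99, 9.52, 22.6 and 24.5), in the order old replicates 1 and 2 and young replicates 1 and 2. The groups did not overlap at any of these 4. Of the 5 members with the largest lower values in old, the remaining pair were a peak beside Olfr1373 (0.350 and 0.307 in old, at 1 count each, and 3.54 and 3.74 in young samples; adjusted p = 0.0887) and one on an Olfr556 exon (1.40, 2.15, 5.66 and 8.16; adjusted p = 0.121).

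Among members higher in old MSCs, the lowest adjusted p was at a peak in Usp17la, a gene for a deubiquitinating enzyme that lies among the chromosome 7 receptors (chr7:104861001-104862100). It had 58.0 and 54.4 in old samples and 26.9 and 26.9 in young samples, a log2 fold change of 1.32 ± 0.22 with an adjusted p of 0.0135. Without old replicate 1 the adjusted p was 9.16e-05, without old replicate 2 it was 3.13e-08, without young replicate 1 it was 0.135 and without young replicate 2 it was 0.257. It was 15931 bp from Olfr665 and 3992 bp from the Usp17la start, and of its 32-base words 68.5% occurred once, so reads from near-identical copies cannot be told apart from its own there. A peak in Gabbr1, which encodes a subunit of the GABA-B receptor, 7271 bp from Olfr90 (chr17:37074001-37076600), had 34.6 and 30.7 in old and 18.4 and 20.4 in young samples (1.00 ± 0.25, adjusted p = 0.0558). Both peaks were on other genes' bodies and not at a receptor. The other 3 of the 5 with the largest fold changes had lower values. A peak on untranslated exon sequence of Olfr460 had 9.44, 5.22, 4.25 and 2.38 (1.17 ± 0.43, adjusted p = 0.173), one on Olfr658 had 8.74, 11.4, 7.79 and 1.70 (1.40 ± 0.45, adjusted p = 0.123), and one 841 bp from Olfr688 had 14.3, 16.0, 6.72 and 11.6 (0.98 ± 0.31, adjusted p = 0.117), in the order old replicates 1 and 2 and young replicates 1 and 2.

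**Figure D5:**
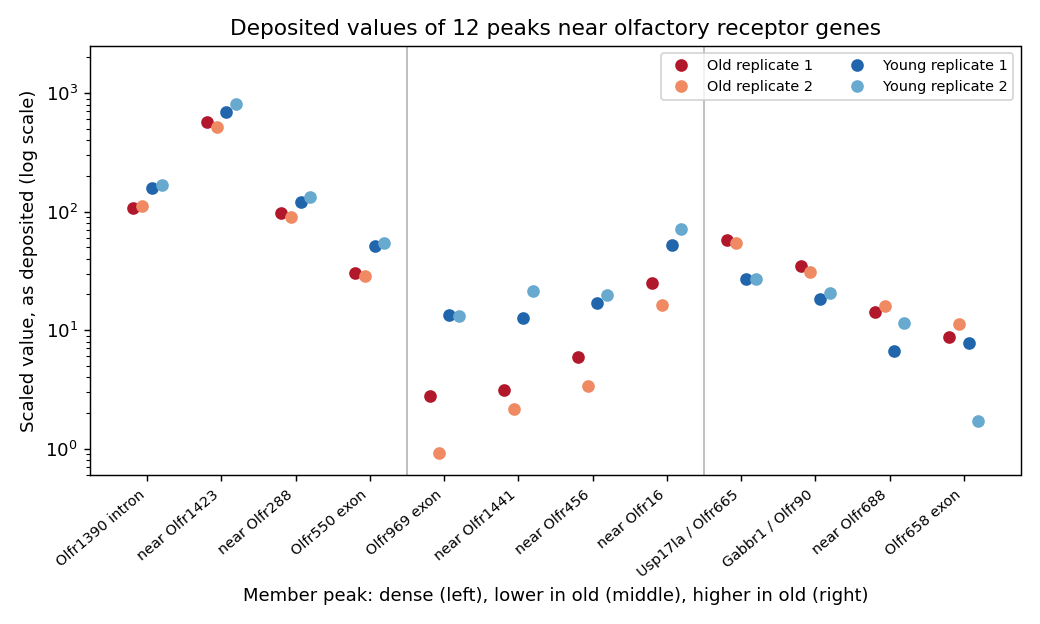
Points are the deposited values (log axis) of the 4 samples at 12 members: 4 of high signal per kb on the left, 4 lower in old MSCs in the middle and 4 higher in old MSCs on the right. At the peak in Usp17la the old samples were at 58.0 and 54.4 and the young samples at 26.9 and 26.9, whereas at Olfr969 the old samples were at or below 2.80 and the young samples above 13.

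Members near receptors with reported roles outside the nose did not share a direction. Within 20 kb of Olfr16, Olfr558, Olfr544, Olfr1393, Olfr1386, Olfr691 or Olfr692 there were 16 members, 7 of them lower in old and 9 higher, with a median log2 fold change of 0.06. Of these, 2 had an unadjusted p under 0.05, the peak beside Olfr16 and the wide peak over Olfr543. Olfr544, which is expressed in several metabolic tissues, had a peak on its coding exon (chr7:102481801-102484200) with 33.6, 32.6, 30.8 and 33.0 in old replicates 1 and 2 and young replicates 1 and 2, where the groups overlapped as deposited. After RLE scaling its values were 41.3 and 32.3 in old and 28.9 and 28.8 in young samples, which do not overlap, with a log2 fold change of 0.33 ± 0.23 (adjusted p = 0.499). The peak over the Olfr692 coding exon had 19.2, 11.7, 12.4 and 17 in the same order. The Olfr1386 coding exon peak had 35.7, 41.5, 37.2 and 36.7, in sequence with 66.7% once-occurring words. Olfr78, an oxygen- and lactate-responsive receptor of the carotid body, and Olfr2 had 0 members within 20 kb.

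By position, the members' median fold changes between ages differed little. The 127 members between genes had a median log2 fold change of -0.04, the 42 within 1 kb of an Olfr start and outside other genes -0.04, the 25 elsewhere in an Olfr gene -0.01 and the 22 inside another gene -0.08. An unadjusted p under 0.05 (limma) was found for 23 of 127, 8 of 42, 6 of 25 and 9 of 22 in the same order, beside 16.4% of all peaks. The share was highest inside another gene, and this difference was not tested. Among the clusters with 10 or more members, the median ran from -0.27 in Olfr160 to Olfr986 on chromosome 9 (11 of 16 lower) to 0.06 in Olfr543 to Olfr692 on chromosome 7 (13 of 31 lower). Across the members, log2 values correlated with r = 0.929 between the old samples, r = 0.956 between the young samples and r between 0.873 and 0.908 across ages, over 216 peaks that share the libraries. Over all peaks, r was higher in each pair and had the same order: 0.955 between old samples, 0.971 between young samples and 0.924 to 0.950 across ages.

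Genes that act with the receptors had peaks in MSCs, counted by a wider rule than the peaks at receptor starts. The share of all genes with a peak by this rule was not computed, and 78.2% of other genes had a peak at a start alone. Of 19 genes for olfactory signal transduction, all had at least 1 peak in the gene body or 5 kb upstream (119 peaks), of which 0 passed the threshold with limma or limma-voom, with an adjusted p of 0.0610 or more, and 17 (14.3%, beside 16.4% of all peaks) had an unadjusted p under 0.05. Their median log2 fold change was -0.08. A promoter peak of Adcy3, the adenylyl cyclase of olfactory cilia, had 36.7, 60.5, 56.3 and 59.5 in old replicates 1 and 2 and young replicates 1 and 2. The promoter peak of Omp, olfactory marker protein, had 51.4, 63.0, 46.0 and 46.9. Cnga2, the cyclic nucleotide-gated channel of olfactory neurons on the X chromosome, had 4 peaks and none at a start. Of 25 genes for receptor choice and silencing, all had a peak (222 peaks), of which 0 passed with limma or limma-voom, with an adjusted p of 0.0502 or more, and 27 (12.2%, beside the same 16.4%) had an unadjusted p under 0.05. Among the 222 were a promoter peak of Lhx2 (56.3, 72.2, 83.9 and 73.8 in the same order; adjusted p = 0.982), that of Ebf2 (143, 142, 236 and 258; adjusted p = 0.107) and one of the heterochromatin protein gene Cbx5 (164, 242, 272 and 276; adjusted p = 0.593). Adcy3, Lhx2 and Cbx5 had further promoter peaks, whose values are not given here. The 80 peaks near the other chemosensory families had 0 past the threshold with limma or limma-voom and 19 (23.8%, beside 16.4% of all peaks) with an unadjusted p under 0.05, and their median log2 fold change was 0.09.

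The labelled cell type was checked against marker promoters. All 10 MSC markers, among them Pdgfra, Ly6a and Prrx1, had a peak within 1 kb of a start, with summed values between 2443 and 3736 in the 4 samples. Of 6 blood markers 1 had one (Spi1; 8.74 and 8.60 in old and 14.9 and 10.2 in young samples), with none at Ptprc, Cd3e, Itgam, Hbb-bs or Hbb-bt, and of 4 endothelial markers 3 had one (sums between 53.1 and 88.7, none at Cdh5). As deposited, where 74.6% of all peaks were lower in old, the Spi1 values and the endothelial sums were lower in the old than in the young samples. Among the endothelial markers, Tek had 22.0 and 28.3 in old and 53.4 and 49.3 in young samples, whereas the groups overlapped at Kdr and Pecam1. The part of these markers in the members' values was not tested. Of 6 olfactory neuron markers 5 had one (sums between 141 and 182), genes that other cells also use in part. At the limits of the rule, a peak 19716 bp from an Olfr gene had 8.04, 7.68, 4.25 and 9.52, and one just outside, 20044 bp away, had 5.94, 5.53, 7.43 and 8.84, in the order old replicates 1 and 2 and young replicates 1 and 2. A peak 2024 bp from another start, just inside, had 17.8, 28.9, 21.9 and 27.2, and one left out at 1788 bp had 6.64, 10.7, 6.72 and 3.74.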

How the data were processed

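The data were ATAC-seq values from bone MSCs of mice, with 2 old and 2 young samples. The authors named the deposited values RPKM, but they were used here as a score, since 100% of them in each sample were whole multiples of one step (tolerance 0.01 counts) and were not divided by peak length. For hypoxia- and normoxia-cultured cells, the methods state mapping to mm10 with bowtie2, removal of duplicates with Picard and peaks from chromstaR, and the submitters' processing notes name Bowtie2, Picard and mm10; processing of the old and young samples is not given separately in the sources used here. Mapping quality filters remove reads at repeated sequence, which can lower values and peak counts there. Every column of values was used (0 left out).

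Members, gene positions and starts came from GENCODE vM21, and sequence from the RefSeq GRCm38 genome. The members and lists were chosen with earlier results of these data known. Eligible sequence was the Olfr genes with 20 kb flanks, less 2 kb around other protein-coding starts. Some items of the marker lists are not reported here. Uniqueness was the share of 32-base words that occur once in the genome. limma 3.58.1 (R 4.3.3), with a mean-variance trend and robust moderation, was fitted to log2(value + 1) after RLE scaling over all 117282 peaks, with Benjamini-Hochberg adjustment over all of them and a threshold of 0.01, and sentences with an adjusted p refer to this fit. An exact permutation test of 2 against 2 samples cannot go below p = 0.33. The fit was tested on simulated counts for the old and young comparison at 117282 peaks, 200 of them changed, where it recovered 99% of changes of log2 size 2 and 22% of those of log2 size 1, with 0 false calls. The changed peaks were drawn only from those above a set expected count, and all peaks had the same fixed dispersion. These shares therefore need not hold for weaker peaks or for the spread of the real samples. Poisson and Wilson intervals cover counting error only. Other steps used Python 3.11.15, numpy 2.4.6, pandas 2.3.3, scipy 1.17.1, pysam 0.24.0 and matplotlib 3.10.9.

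Peaks named in the text were the members past the threshold (0), the 8 with the highest value per kb, the 5 in each direction with the largest fold change among those changed the same way in all 4 pairs, the 3 widest, the 6 with the highest value per kb at an Olfr start, and those near receptors with reported roles outside the nose; other peaks are marked where they are named. The alternatives tried were other scalings, a filter on weak peaks, pseudocounts of 0.1 and 5, flanks of 5 and 50 kb, a distance of 5 kb to other starts, protein-coding transcripts alone, a cluster gap of 200 kb, motifs in the whole peak, plain variance moderation, limma-voom on recovered counts, autosomal peaks alone, replicate blocks, an adjusted p of 0.05 and leaving out each sample. Chosen after the data were examined were leaving out chromosome 11, leaving out members with under 80% once-occurring words, and other pseudocounts on the values as deposited.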

Additional observations from a re-analysis of the deposited data

How the results depend on the processing

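The members' median log2 fold change, -0.30 as deposited, was -0.043 with RLE scaling, -0.047 with quantile normalization, 0.022 with equal total signal and -0.22 with a pseudocount of 5, and the share lower in old MSCs (72.7%) was 53.7%, 54.6% and 47.7% with these 3 scalings; the choice of scaling therefore sets its direction. Leaving out 1 sample gave medians from -0.41 (without young replicate 1) to -0.22 and shares from 64.4% (without old replicate 1) to 78.2%. Relative to other autosomal peaks, the median of -0.05 ranged from -0.17 without old replicate 1 to 0.08 without old replicate 2 and was 0.0016 without young replicate 2, so its sign is not stable to leaving out 1 sample. The number of members past the threshold, 0 in each direction, was 10 lower as deposited (5 and 10 with pseudocounts of 0.1 and 5, chosen after seeing the data), 7 lower and 1 higher at an adjusted p of 0.05 and 1 higher with limma-voom, and leaving out 1 sample gave 0 to 22 lower and 0 to 4 higher, most without old replicate 1. Quantile normalization, equal total signal, RLE with other pseudocounts, the filter on weak peaks, plain variance moderation and autosomal peaks alone gave 0. For changes of log2 size 1 the simulation recovered 22%, so a count of 0 does not exclude changes of that size. Members with log2 fold changes of -2.17 and -2.03 did not pass either (limma, adjusted p = 0.0219 and 0.0168). Of the 40 named peaks, 10 passed without old replicate 1 and 5 without old replicate 2, and 0 without either young replicate; the cause was not tested.

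With the replicate number as a block, 5 members were lower and 1 higher, where 1.08% of all peaks passed. Same-numbered samples did not deviate together (r = -0.0993 in each of the 2 pairs). With 2 samples per group these values are equal by construction, so they cannot decide whether the numbers pair samples.

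The filter on weak peaks raised the median value per kb to 15.5 and lowered the density to 5.57 peaks per Mb, where the rest of the autosomes fell to 30.2 per Mb, a ratio of 5.42. A 50 kb flank gave 11 peaks per Mb. The share of members within 1 kb of an Olfr start, 19.9%, was 36.1% with a 5 kb flank and 11.9% with a 50 kb flank. The share of members in or beside clusters of 10 or more genes, 77.3%, was 68.1% with a gap of 200 kb. Searched in whole peaks, the AP-1 share was 38.9%, against 40.8% in other distal peaks, so the AP-1 difference seen in the central 300 bases was not present there. The E-box share was 50.5% against 48.8%. TEAD (48.1% against 55.5%) and RUNX (51.9% against 64.0%) stayed less frequent in members. Whole-peak shares also depend on width, and members were narrower (median 900 against 1000 bp).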
